A study of Mus musculus with 15 samples.

Results

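GABA-A receptor subunit genes were followed through nuclear RNA of cortical parvalbumin neurons from mice with altered thyroid hormone signalling. The members are the 7 subunit genes Gabra2, Gabra3, Gabra4, Gabra5, Gabrb1, Gabrb2 and Gabrd, taken by symbol from the 46380 genes whose symbol stands in all 15 count tables. Fluorescent nuclei were sorted from the cortex of individual adult mice, and RNA of each animal gave 1 library. All mice carried PvCre, which drives Cre from the parvalbumin gene, and the Cre-dependent reporter ROSA-tomato-lox. PTU_TH mice (n = 4, Thra+/+) ate propylthiouracil, a blocker of thyroid hormone synthesis, for 2 weeks and received thyroid hormone by intraperitoneal injection 24 h before dissection. PTU mice (n = 3, Thra+/+) ate the same diet and were not injected. Mut mice (n = 4, ThraAMI/+) carried a floxed allele of Thra, which encodes thyroid hormone receptor alpha, whose product is dominant negative, and Ctrl mice (n = 4, Thra+/+) were their untreated littermates. The reporter, and in Mut mice the mutant receptor, both depend on Cre made where the parvalbumin gene is active, so the sorted population follows that driver.

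GABA-A receptors are chloride channels assembled from subunits around a central pore, and they carry most fast inhibition in the brain. GABA binds between alpha and beta subunits, the choice of alpha subunit sets where a receptor sits and how quickly it acts, and delta replaces gamma in receptors outside the synapse that give a steady, tonic inhibition. Parvalbumin neurons are fast-spiking interneurons that both release GABA and receive it from other interneurons, and their maturation is known to be sensitive to thyroid hormone.

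The libraries held 12957838 to 19141683 counts in PTU_TH and PTU mice and 22333742 to 32571175 in Mut and Ctrl mice. The tables of the PTU_TH and PTU libraries use another gene list than those of Mut and Ctrl, so in comparisons across them the set and the treatment cannot be told apart. Levels are given as CPM, read counts scaled by library size, on 1 TMM scale over the 15 libraries. Hr, a gene induced by thyroid hormone, averaged 47.1 ± 3.04 CPM in PTU_TH, 3.91 ± 1.71 in PTU, 1.76 ± 1.53 in Mut and 14.6 ± 1.68 in Ctrl libraries (SD). Thra was called lower in Mut than in Ctrl (log2 fold change -0.84, adjusted p = 0.0280), and the counts do not separate its alleles. Pvalb averaged 136 ± 12.9 CPM in PTU_TH, 99.5 ± 8.003 in PTU, 79.7 ± 12.8 in Mut and 123 ± 9.90 in Ctrl libraries (SD), and its difference between Mut and Ctrl was not called (-0.63, adjusted p = 0.0780). The 7 parvalbumin neuron markers, Pvalb and Gad1 among them, were detected in every group, with summed levels of 4900 to 6520 CPM in PTU_TH, 4589 to 6254 in PTU, 6149 to 7882 in Mut and 6115 to 8090 in Ctrl libraries, while Gfap of astrocytes and P2ry12 of microglia had 0 counts in every library. Counts of 4 Y-linked genes were present (292 to 476 CPM) in PTU_TH replicates 3 and 4, PTU replicates 6 and 7, Mut replicates 1, 2 and 3 and Ctrl replicate 2, and near 0 (at most 3.19 CPM) in the others. The titles number separate mice, and nothing further is said of litters or sorting days.

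Members differed widely in level, and the order was nearly the same in every group. Per kb of exonic length, Ctrl libraries averaged 169 CPM for Gabrd, 88.1 for Gabrb2, 34.7 for Gabra4, 17.0 for Gabra3, 8.03 for Gabrb1, 2.11 for Gabra2 and 1.63 for Gabra5. Gabrd, which encodes the delta subunit of receptors outside the synapse, stood 1.92 times above Gabrb2, which encodes a beta subunit abundant in the adult cortex. In all 4 groups the means followed the order Gabrd, Gabrb2, Gabra4, Gabra3, Gabrb1, and on this length the ranges of neighbours over libraries did not overlap. The gap between Gabrd and Gabrb2 depends on the length used. Per kb of the longest transcript it was 1.28 times in Ctrl libraries, and the ranges of Gabrd and Gabrb2 overlapped in Mut (132 to 198 and 104 to 151) and in Ctrl (155 to 217 and 110 to 169), with Gabrb2 the higher in Mut replicate 1 and Ctrl replicate 1. Gabra2 and Gabra5 came last, and they overlapped in PTU_TH, PTU and Ctrl libraries. In Mut libraries Gabra2 (2.89 ± 0.858 CPM per kb) lay above Gabra5 (0.958 ± 0.303) without overlap. In PTU_TH libraries the mean of Gabra5 (1.56 ± 0.182) was the higher and that of Gabra2 was 1.02 ± 0.341. The sources used here do not say whether reads in introns were counted, and in nuclear RNA that would shift levels per exonic length.

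**Figure D1:**
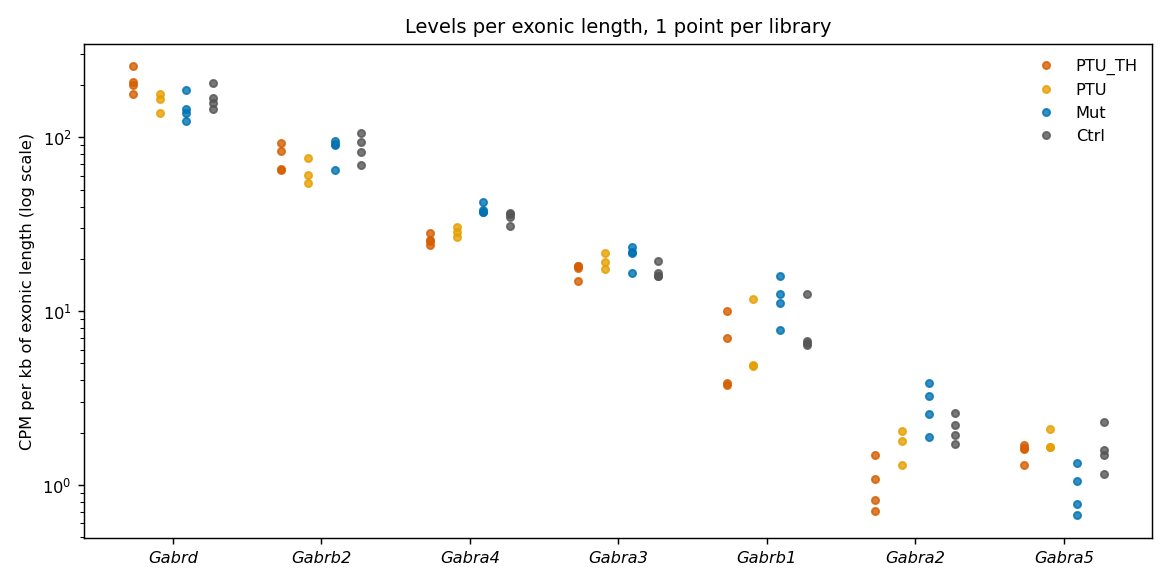
Level of the 7 subunit genes in CPM per kb of union exonic length (log axis), with 1 point per library and the groups PTU_TH, PTU, Mut and Ctrl side by side for each gene. The points of Gabrd, Gabrb2, Gabra4, Gabra3 and Gabrb1 step down without overlap within each group, and those of Gabra2 and Gabra5 lie lowest, all below 4 CPM per kb.

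Among the alpha subunit genes, Gabra2 is the member with the largest called difference. Its protein, alpha2, is known from synapses on the axon initial segment of pyramidal cells. PTU_TH libraries had 5.41, 8.29, 11.3 and 6.28 CPM, PTU libraries 15.7, 9.96 and 13.7, Mut libraries 24.7, 19.7, 14.4 and 29.7, and Ctrl libraries 19.7, 13.2, 16.8 and 14.7. Every PTU_TH library lay below every Ctrl library, PTU overlapped both, and Mut reached highest. These values rest on 73 to 147 counts per PTU_TH library and 309 to 447 per Ctrl library. In bulk nuclei, fewer nuclei of a type and less RNA per nucleus cannot be told apart.

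Gabra4, whose product alpha4 pairs with delta in receptors outside the synapse of dentate granule cells and thalamic neurons, varied least within groups. PTU_TH libraries had 153, 171, 157 and 147 CPM, PTU libraries 185, 162 and 173, Mut libraries 233, 225, 257 and 225, and Ctrl libraries 221, 189, 212 and 223. The PTU_TH and PTU libraries all lay below the Ctrl libraries, and the Mut libraries all lay above them, the nearest by little (224.9 CPM in Mut against 222.9 in Ctrl). Its coefficient of variation within groups was 6.39% to 7.39%.

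Gabrb1, the beta1 gene, had the largest coefficient of variation of the members in PTU_TH, PTU and Ctrl libraries. PTU_TH libraries had 97.4, 138, 53.7 and 52.1 CPM, PTU libraries 163, 68.1 and 66.7, Mut libraries 220, 108, 155 and 173, and Ctrl libraries 173, 88.0, 90.6 and 93.5. All groups overlapped with Ctrl, and in PTU and Ctrl a lone library (PTU replicate 5 and Ctrl replicate 1) stood far above the others. The coefficient was 28.4% in Mut, where Gabra5 (31.6%) and Gabra2 (29.6%) varied more, and 36.9% to 55.4% in the other groups.

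Gabra4 and Gabrb1 lie on opposite strands of chromosome 5 with overlapping 5′ ends. By the RefSeq starts used for the promoter windows, a member with little and a member with much spread start within 387 bases of each other. Gabra4 spans chr5:71569749-71658308 on the minus strand (88.6 kb) and Gabrb1 chr5:71658113-72149037 on the plus strand (491 kb), in GRCm38 by GENCODE M21. Their exons share 46 bases, 0.756% of the exonic length of Gabra4, and counts there cannot be assigned to a strand with a kit that does not mark it. Gabra2 lies on the same chromosome at chr5:70957597-71095849, minus strand, and spans 138 kb. The promoter windows of these 3 genes, 250 bases before to 50 after a transcript start, are shown because Gabra2 and Gabra4 carry the only calls among the members and because Gabra4 and Gabrb1 start so close together. They are RefSeq sequence of GRCm38.p6, 5′ to 3′ on the gene's strand, at chr5:71095800-71096099 (Gabra2, minus), chr5:71658259-71658558 (Gabra4, minus) and chr5:71657671-71657970 (Gabrb1, plus, at its upstream start). Capitals mark GC boxes.
Gabra2: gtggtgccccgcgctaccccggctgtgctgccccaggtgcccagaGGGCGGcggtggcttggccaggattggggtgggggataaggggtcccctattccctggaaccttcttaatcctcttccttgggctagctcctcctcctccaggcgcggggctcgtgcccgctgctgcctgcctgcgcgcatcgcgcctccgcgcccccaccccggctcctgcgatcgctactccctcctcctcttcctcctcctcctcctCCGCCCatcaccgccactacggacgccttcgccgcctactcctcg
Gabra4: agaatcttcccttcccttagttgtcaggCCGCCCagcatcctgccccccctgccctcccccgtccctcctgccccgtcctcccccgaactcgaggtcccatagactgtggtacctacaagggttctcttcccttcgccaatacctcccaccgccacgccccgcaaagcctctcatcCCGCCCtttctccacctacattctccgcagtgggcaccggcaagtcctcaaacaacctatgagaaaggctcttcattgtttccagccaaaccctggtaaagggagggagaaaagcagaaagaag
Gabrb1: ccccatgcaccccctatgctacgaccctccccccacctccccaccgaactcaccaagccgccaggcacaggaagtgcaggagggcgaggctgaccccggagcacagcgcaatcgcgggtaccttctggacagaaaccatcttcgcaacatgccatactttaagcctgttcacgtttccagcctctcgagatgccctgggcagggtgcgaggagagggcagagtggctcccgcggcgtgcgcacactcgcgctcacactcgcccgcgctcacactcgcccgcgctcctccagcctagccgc
RefSeq promoter windows matched 6 of the 7 members, with more than 1 start for Gabrb1, Gabrb2 and Gabra3. The windows were searched on both strands for the GC box GGGCGG, for the TATA box motif TATAAA, and for AGGTCA, the core sequence that thyroid hormone receptors bind. The searched motifs do not overlap in the printed windows. The windows of Gabra2 and Gabra4 hold 2 GC boxes each and that of Gabrb1 holds 0, and all 3 lack the TATA box. The GC box occurs in 35.7% and the TATA box in 13.6% of the 32851 mouse promoter windows of the same length. The core sequence of the receptors stands in 0 of the members' windows and in 16.3% of all promoter windows. The windows of Gabra2 and Gabrb1 hold 25 CpG each and that of Gabra4 holds 12, against a median of 7 over all windows. No match says only that these letters are not in the window.

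The remaining alpha subunit genes are Gabra3 and Gabra5. Gabra3, on the X chromosome (224 kb), encodes an alpha subunit found in deep cortical layers and in the reticular thalamus. It had 71.6, 71.4, 58.8 and 69.5 CPM in PTU_TH libraries, 84.7, 68.5 and 74.8 in PTU, 92.3, 64.8, 84.3 and 86.0 in Mut, and 62.3, 62.6, 76.1 and 65.1 in Ctrl. Of the 4 Mut libraries, 3 lay above all Ctrl libraries, and the groups overlapped. Gabra5, on chromosome 7 (102 kb), encodes a subunit of tonic receptors best known from hippocampal pyramidal cells. It had 3.85, 5.08, 4.76 and 4.87 CPM in PTU_TH, 4.89, 6.28 and 4.89 in PTU, 3.99, 1.98, 2.30 and 3.13 in Mut, and 3.44, 6.83, 4.72 and 4.39 in Ctrl. Mut held the 3 lowest libraries, with 46 to 95 counts in each Mut library, and overlapped with Ctrl in 1 library on each side. Of its exonic length, 4.98% is shared with the predicted gene Gm9962.

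Gabrb2 and Gabrd were the most abundant members. Gabrb2, on chromosome 11 (209 kb), had 532, 592, 411 and 420 CPM in PTU_TH, 485, 346 and 384 in PTU, 603, 415, 579 and 574 in Mut, and 675, 441, 602 and 523 in Ctrl. The groups overlapped, and PTU held the lowest library. Gabrd, on chromosome 4, is the shortest member at 13.1 kb. It had 578, 509, 599 and 736 CPM in PTU_TH, 398, 513 and 479 in PTU, 356, 535, 417 and 396 in Mut, and 420, 588, 451 and 488 in Ctrl. PTU_TH held the 2 highest libraries, and only its lowest (509.1 CPM) lay below the highest PTU library (512.9 CPM).

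**Figure D2:**
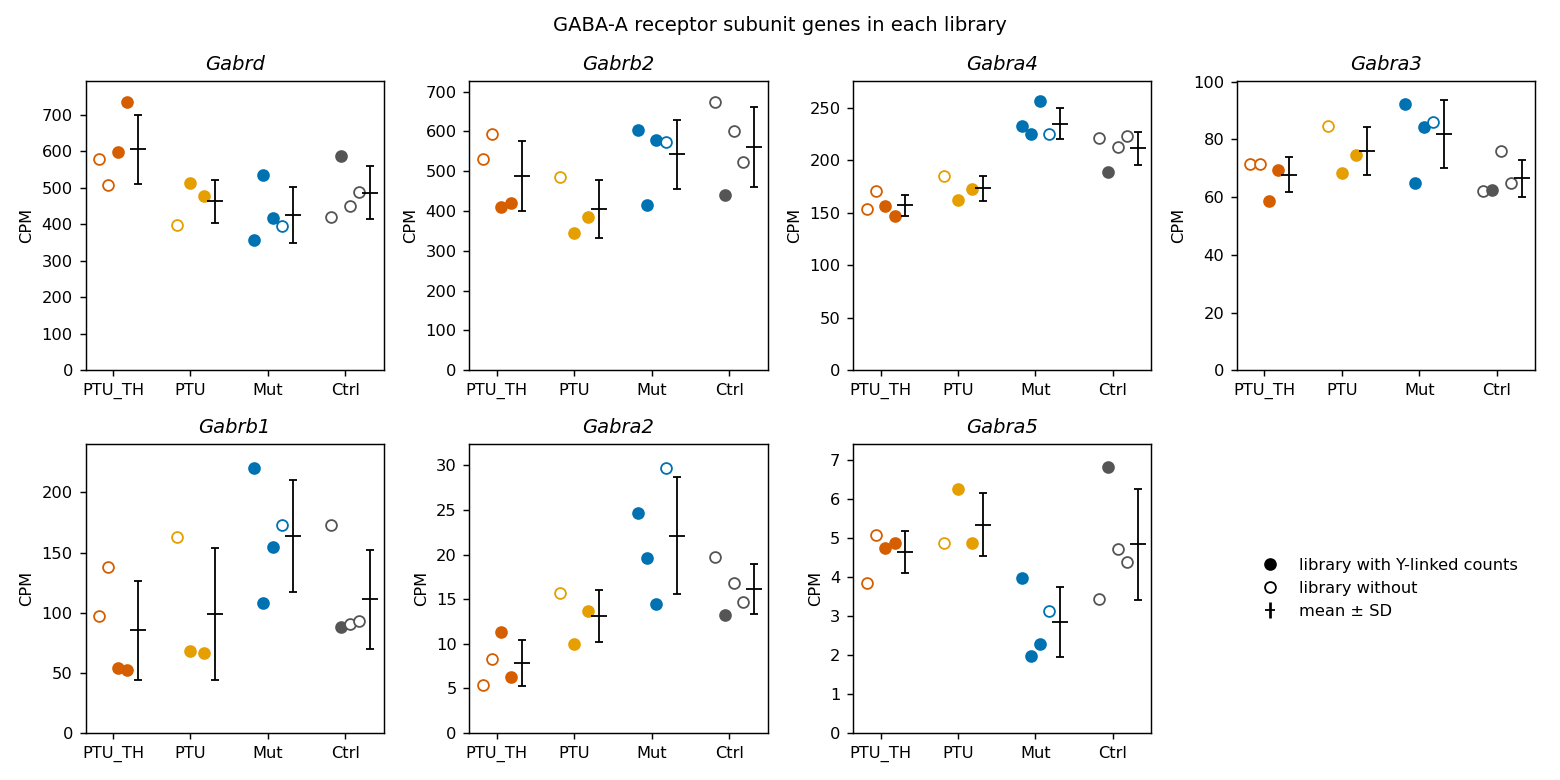
CPM of each subunit gene in every library (points), with the mean and SD of each group beside them, for PTU_TH, PTU, Mut and Ctrl from left to right; filled points are libraries with Y-linked counts and open points those without. Gabra2 lies below 12 CPM in all PTU_TH libraries and above 13 CPM in all Ctrl libraries, and Gabrb1 scatters widely within every group.

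Within groups, the levels of Gabrb1, Gabrb2 and Gabrd moved with the share of counts in long genes. The share of counts in genes over 100 kb, with the members left out, was 34.0%, 40.6%, 28.3% and 24.9% in PTU_TH libraries, 39.6%, 25.6% and 25.8% in PTU, 36.6%, 27.4%, 34.5% and 34.5% in Mut, and 39.6%, 29.4%, 32.9% and 31.6% in Ctrl. Gabrb1, the longest member, was highest in the library with the highest share in each of the 4 groups, PTU_TH replicate 2, PTU replicate 5, Mut replicate 1 and Ctrl replicate 1. Gabrb2 was highest in those same 4 libraries. Gabrd, the shortest, was lowest in each of them, and it was highest where the share was lowest in every group. Gabra2, Gabra3 and Gabra5, also over 100 kb, did not follow the share in every group. Gabra2 was highest in the library with the highest share in PTU and Ctrl, Gabra3 in PTU and Mut, and Gabra5 in PTU_TH and Mut. Gabra2 was instead highest in PTU_TH replicate 3 and Mut replicate 4. In Ctrl replicate 1, Gabra3 (62.3 CPM) and Gabra5 (3.44 CPM) were lowest. Gabra5 was highest (6.83 CPM) in Ctrl replicate 2, where the share was lowest. In PTU_TH and PTU mice the libraries without Y-linked counts held shares of 34.0% to 40.6% and those with them 24.9% to 28.3%. In Mut and Ctrl mice the ranges overlapped, at 31.6% to 39.6% without and 27.4% to 36.6% with Y-linked counts. The part of sex, of RNA quality and of the sort in this structure was not tested.

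**Figure D3:**
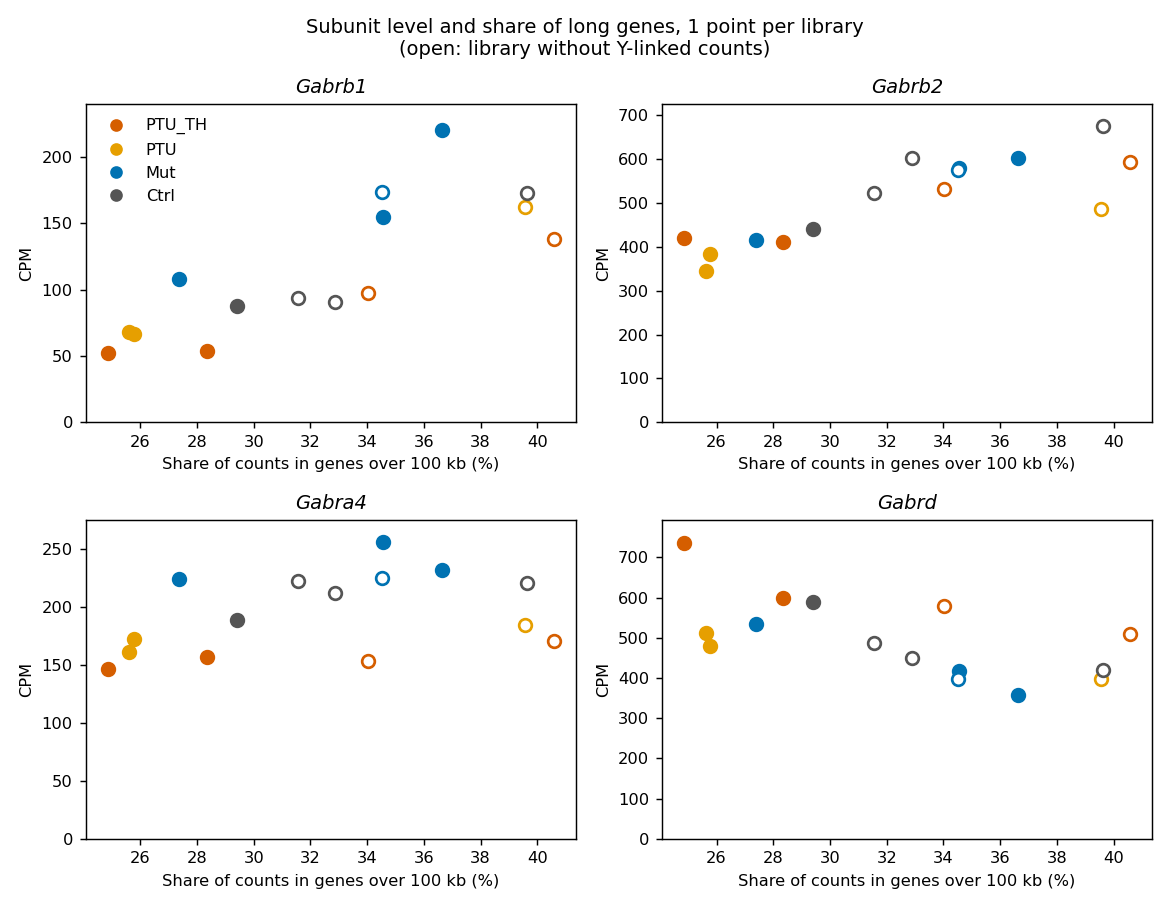
CPM of Gabrb1, Gabrb2, Gabra4 and Gabrd against the share of counts in genes over 100 kb (percent, members left out), 1 point per library, coloured by group and open where Y-linked counts are absent. Gabrb1 and Gabrb2 are highest where the share is highest in each group, Gabrd is lowest there, and the PTU_TH and PTU points of Gabra4 all lie below those of Mut and Ctrl.

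Hormone injection in PTU-fed mice (PTU_TH against PTU) addresses the response to hormone within 24 h. None of the 7 members passed the threshold of an adjusted p under 0.05 in edgeR's quasi-likelihood test, with 0.281% of all 15288 genes called. DESeq2 and limma-voom also called 0 members, and 2 members had an unadjusted p under 0.05, as did 1126 of all genes. The estimates were 0.40 ± 0.17 for Gabrd (log2 fold change ± SE, adjusted p = 0.640) and -0.74 ± 0.28 for Gabra2 (adjusted p = 0.541). The other estimates were 0.28 ± 0.20 for Gabrb2, -0.13 ± 0.11 for Gabra4, -0.15 ± 0.13 for Gabra3, -0.19 ± 0.20 for Gabra5 and -0.21 ± 0.43 for Gabrb1. The interval of Gabrb1 was wide, with 95% bounds of -1.20 and 0.77, and that of Gabra4 narrow, with bounds of -0.38 and 0.12. On the CPM scale all 7 members overlapped between groups, whereas 8.45% of all genes did not overlap. On the scale of the 7 libraries of this comparison alone, Gabrd did not overlap, with 509 to 722 CPM in PTU_TH and 402 to 495 in PTU libraries. The median over the members was -0.15 against -0.0029 over all genes.

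With the long-gene share as a covariate, 3 members were called between PTU_TH and PTU, with 1012 genes called in all in place of 43. Gabrd was higher in PTU_TH (log2 fold change 0.43, adjusted p = 0.000341), and Gabra2 (-0.76, adjusted p = 0.0486) and Gabrb1 (-0.35, adjusted p = 0.0124) were lower. A surrogate variable in place of the share, itself estimated from the counts of these libraries, called the same 3, with 1013 genes called in all. Within libraries without Y-linked counts (2 against 1) the log2 ratio was 0.45 for Gabrd, -1.20 for Gabra2 and -0.46 for Gabrb1, and within those with them (2 against 2) it was 0.43, -0.43 and -0.35 in the same order. The estimate of Gabrb1 turned to 0.38 without PTU replicate 5, the PTU library with the highest long-gene share, and to 0.068 with limma-voom.

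**Figure D4:**
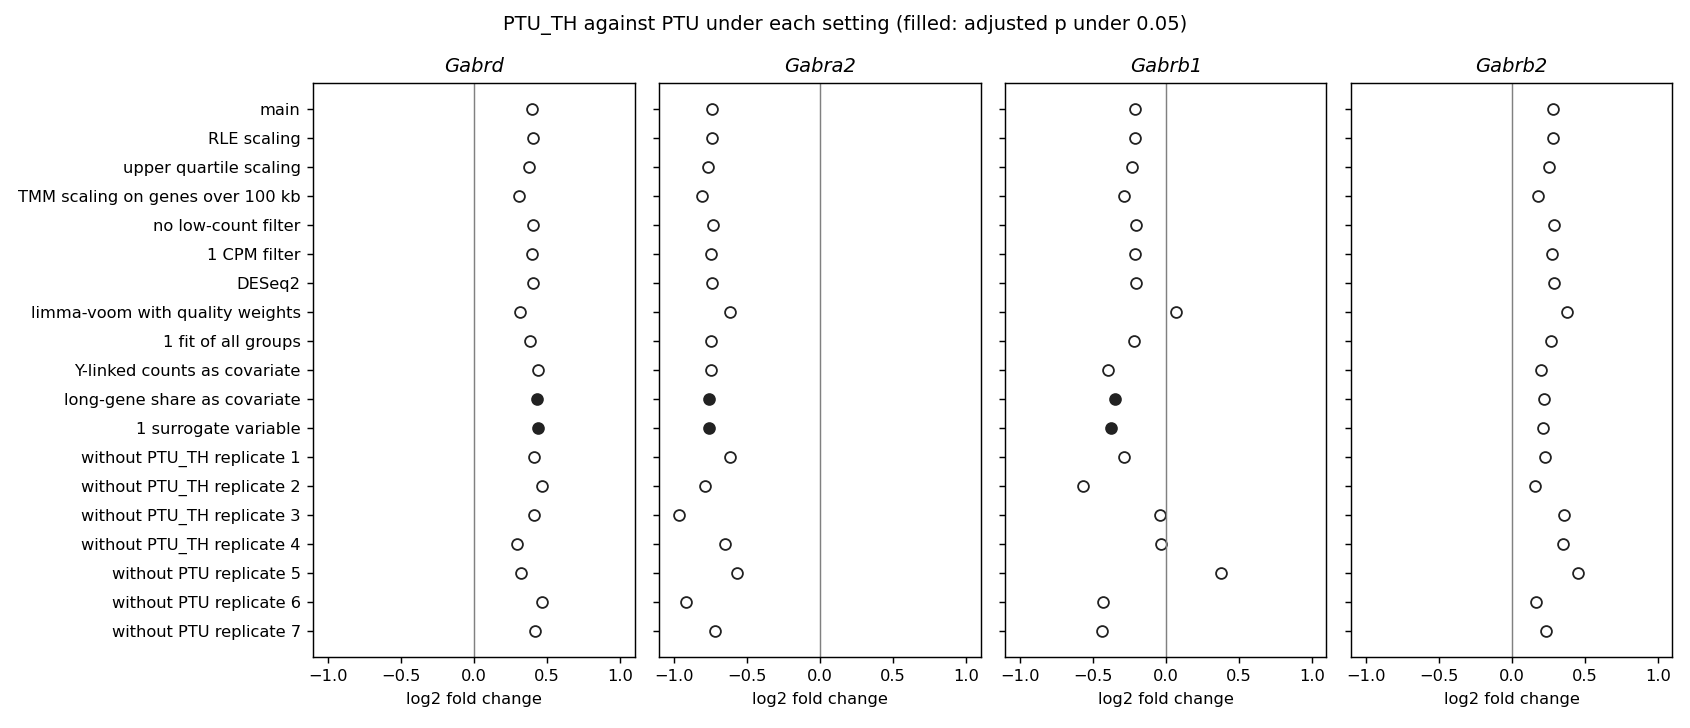
Log2 fold change of PTU_TH against PTU for Gabrd, Gabra2, Gabrb1 and Gabrb2 under each processing setting, from the quasi-likelihood fit as reported (top) to the omission of each library (bottom); filled points have an adjusted p under 0.05. Gabrd stays between 0.30 and 0.47 and Gabra2 between -0.96 and -0.57, while Gabrb1 runs from -0.56 to 0.38.

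In Mut against Ctrl, the comparison of the dominant negative receptor with wild-type littermates, no member was called either, with 0.348% of 16949 genes called. Of the members, 3 had an unadjusted p under 0.05, as did 1481 of all genes. These were Gabra5 (-0.77 ± 0.32, adjusted p = 0.515), Gabrb1 (0.56 ± 0.25, adjusted p = 0.561) and Gabra3 (0.30 ± 0.13, adjusted p = 0.554). The estimate of Gabra2 was 0.46 ± 0.23 (adjusted p = 0.644), that of Gabra4 0.15 ± 0.11, that of Gabrb2 -0.048 ± 0.17 and that of Gabrd -0.19 ± 0.16. Gabra4 was the 1 member whose groups did not overlap, against 6.08% of all genes. DESeq2 called 0 members, and limma-voom called Gabrb1 (0.90, adjusted p = 0.0271), as did the fit with the long-gene share (0.59, adjusted p = 0.0282). The latter fits called 331 and 211 of the 16949 genes. Within the Y-linked classes the log2 ratio of Gabrb1 was 0.54 without (1 against 3 libraries) and 0.87 with Y-linked counts (3 against 1), and that of Gabra5 was -0.42 and -1.31. Summed levels of the 10 markers of other interneurons were 185 to 257 CPM in Mut and 157 to 173 in Ctrl libraries, with Sncg at 0 in Ctrl, and 0 of the 7 tested were called. The most abundant of these markers alone averaged 88.4 ± 24.5 CPM in Mut and 53.7 ± 13.6 in Ctrl libraries (SD). All 7 tested had positive estimates. The part of these markers in the values of Gabra2 and Gabrb1 was not tested.

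For PTU against Ctrl, 2 weeks of PTU against untreated mice across the sets of tables, 0 of 7 members were called, with 17.0% of 16496 genes called. Gabrb2 had the smallest p (-0.46 ± 0.19, unadjusted p = 0.0362, adjusted p = 0.140), the only member under 0.05 before adjustment. Gabra4 followed (-0.28 ± 0.13, adjusted p = 0.174), and it alone did not overlap between groups, against 27.3% of all genes. The estimates of Gabra2 (-0.29 ± 0.22), Gabra3 (0.20 ± 0.13), Gabra5 (0.15 ± 0.28), Gabrb1 (-0.16 ± 0.33) and Gabrd (-0.062 ± 0.17) had adjusted p-values of 0.351 to 0.849. DESeq2 called 0 members, and limma-voom called Gabra4 and Gabrb2, with 5653 of 16496 genes called in all. Gabrb2 also passed without PTU replicate 5 (-0.62, adjusted p = 0.0330) and with the long-gene share as covariate (-0.34, adjusted p = 0.0211). Those fits called 4283 and 4011 genes in all. Within the Y-linked classes the log2 ratio of Gabrb2 was -0.31 without (1 against 3) and -0.27 with Y-linked counts (2 against 1), whereas that of Gabrb1 was 0.45 and -0.38.

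In PTU_TH against Ctrl, 2 of 7 members were called lower, where 17.8% of 15814 genes were called in either direction. The comparison runs across the sets of tables, so set and treatment cannot be told apart for these calls. Gabra2 averaged 7.82 ± 2.61 CPM in PTU_TH libraries, against 16.1 ± 2.82 in Ctrl libraries (SD, n = 4 each), a fold of 0.485 (log2 fold change -1.04 ± 0.24, adjusted p = 0.00721). Gabra4 averaged 157 ± 10.03 CPM in PTU_TH, against 211 ± 15.6 in Ctrl, a fold of 0.743 (-0.43 ± 0.11, adjusted p = 0.0139). Both were lower in every PTU_TH library, and groups did not overlap for these 2 members, against 23.1% of all genes. The estimates of the others were 0.32 ± 0.16 for Gabrd (adjusted p = 0.212), -0.38 ± 0.31 for Gabrb1, -0.20 ± 0.18 for Gabrb2, 0.028 ± 0.11 for Gabra3 and -0.061 ± 0.25 for Gabra5. The estimate of Gabrb1 was -0.72 without PTU_TH replicate 2 and -0.083 without Ctrl replicate 1.

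For both called genes every PTU_TH library lay below every Ctrl library, so their sign within the Y-linked classes was fixed beforehand. Without Y-linked counts (2 against 3) the log2 ratio was -1.32 for Gabra2 and -0.43 for Gabra4, and with them (2 against 1) it was -0.59 and -0.31. Summed markers of other interneurons were 98.3 to 177 CPM in PTU_TH and 157 to 173 in Ctrl libraries. Of the 7 tested, 1 was called lower, where 17.8% of all genes were called in either direction. Their estimates were 3 positive and 4 negative, and the part of these markers in the lower Gabra2 was not tested. With TMM scaling on genes over 100 kb alone, which moved the median of all genes by 0.137, Gabra2 stood at -0.89 (adjusted p = 0.0526) and Gabra4 at -0.30 (adjusted p = 0.302). Without PTU_TH replicate 1 the estimate of Gabra4 was -0.42 and its adjusted p was 0.0543. The PTU, PTU_TH and Mut estimates against Ctrl share the Ctrl libraries, and the difference between them was not tested; for Gabra4 they were -0.43 in PTU_TH, -0.28 in PTU and 0.15 in Mut.

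**Figure D5:**
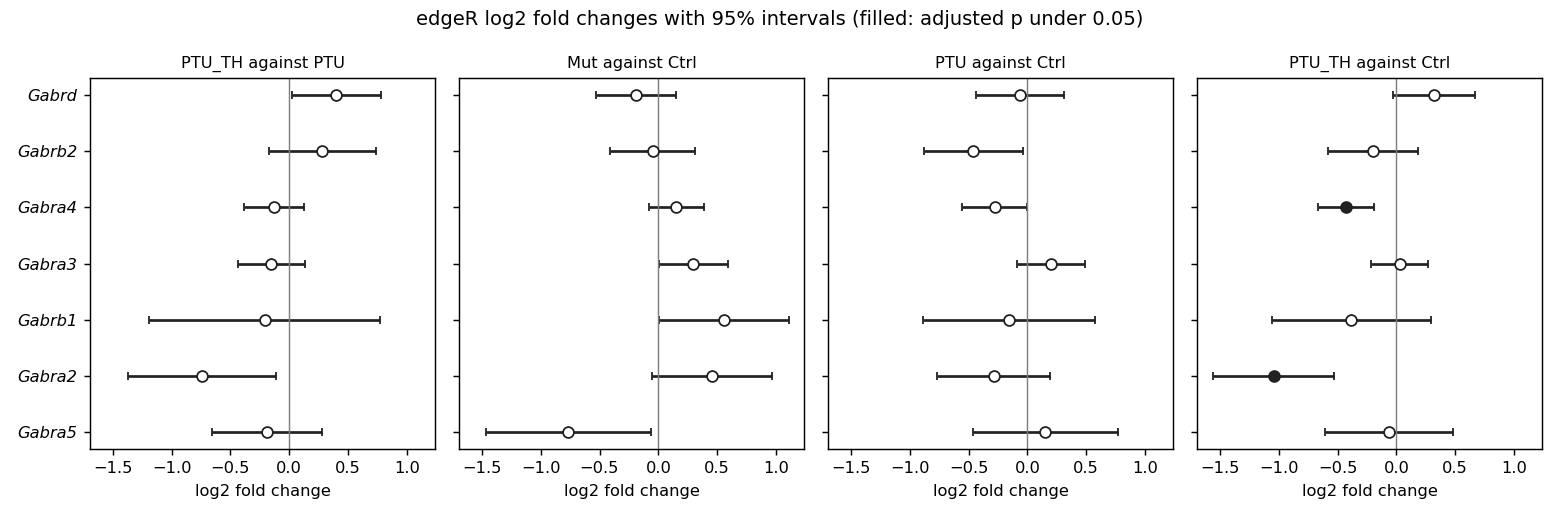
Log2 fold changes of the 7 subunit genes with 95% intervals in PTU_TH against PTU, Mut against Ctrl, PTU against Ctrl and PTU_TH against Ctrl, from edgeR's quasi-likelihood test; filled points have an adjusted p under 0.05. The filled points are Gabra2 (-1.04) and Gabra4 (-0.43) in PTU_TH against Ctrl, and the intervals of Gabrb1 are among the widest.

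Other genes of GABA-A signalling were read as 4 lists. Of 12 other GABA-A subunit genes, 16 genes of the inhibitory synapse scaffold and receptor partners, 13 receptor trafficking genes and 6 chloride transporter and GABA-B receptor genes, none was called in PTU_TH against PTU or in Mut against Ctrl by edgeR. In PTU_TH against PTU 39 of these genes were tested, 1 had an unadjusted p under 0.05, and DESeq2 and limma-voom called 0. In Mut against Ctrl 38 were tested, 3 had an unadjusted p under 0.05, and DESeq2 and limma-voom each called 1 in the chloride transporter and GABA-B list. The median of the other subunit genes was 0.21 in PTU_TH against PTU (7 tested, 6 positive) and 0.0046 in Mut against Ctrl (7 tested, 4 positive).

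Across the sets, PTU against Ctrl gave lower values for all 8 other subunit genes tested, where 48.6% of all genes were positive. Of the 8, 2 were called, against 17.0% of all genes, and the median was -0.52 against -0.015 over all genes. PTU_TH against Ctrl gave lower values for 6 of 7 tested, where 48.5% of all genes were positive, with 2 called against 17.8% over all genes and a median of -0.45 against -0.016 over all genes. Gabrr3, a rho subunit gene, was among those called, with 1.01 ± 0.240 CPM in PTU_TH (n = 4), 0.570 ± 0.307 in PTU (n = 3) and 3.54 ± 0.852 in Ctrl libraries (n = 4). Its log2 fold change was -1.80 ± 0.32 in PTU_TH (adjusted p = 0.00120) and -2.61 ± 0.44 in PTU (adjusted p = 0.00139), on at most 20 counts per PTU_TH library.

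Gphn, which encodes the scaffold gephyrin that anchors synaptic GABA-A receptors, averaged 285 ± 81.5 CPM in PTU_TH, 254 ± 76.4 in PTU and 553 ± 111 in Ctrl libraries. It was called lower in PTU_TH (-0.96 ± 0.21, adjusted p = 0.00614) and in PTU (-1.11 ± 0.23, adjusted p = 0.00485). Igsf9b, an adhesion molecule of inhibitory synapses, averaged 252 ± 19.2 CPM in PTU_TH, 214 ± 7.76 in PTU and 55.9 ± 7.20 in Ctrl libraries and was called higher in PTU_TH (2.17 ± 0.12, adjusted p = 7.87e-08) and in PTU (1.95 ± 0.13, adjusted p = 1.27e-06). Gabarapl2, a relative of the receptor-binding protein GABARAP that also acts in autophagy, was called lower in PTU_TH (-0.97 ± 0.14, adjusted p = 0.000224) and in PTU (-1.02 ± 0.20, adjusted p = 0.00319). Those 3 genes differed from Ctrl by like amounts in both groups of the other set of tables. As for every gene compared across the sets, set and treatment cannot be told apart for them. In each comparison 1 of 13 tested scaffold and partner genes was called higher and 1 lower, and 1 of 13 trafficking genes lower. Over all genes, 17.0% were called in PTU against Ctrl and 17.8% in PTU_TH against Ctrl. None of the 5 chloride transporter and GABA-B genes tested was called in either comparison by edgeR, with 1 at an unadjusted p under 0.05 in each. DESeq2 called 0 of them in PTU and 1 in PTU_TH against Ctrl, and limma-voom 2 and 0.

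The genes whose levels ran most like each member were sought over the 15 libraries among 9917 protein-coding genes with at least 5 CPM on average. Gabrb1 was most like Cadm1, Grm5 and Nxph1 (Pearson r of log2 CPM 0.976, 0.966 and 0.962), genes of 301 to 551 kb, and r stayed at 0.964 to 0.981 once group means were removed. Gabrb2 was most like Ppargc1a (0.948), Pdk3 (0.940) and Cask (0.937), genes of 67.6 to 334 kb. Gabrd was most like Podxl2 (0.949), Haghl (0.925) and Rasgrp2 (0.924), genes of 5.83 to 32.5 kb. Gabra4 was most like Nek7 (0.964), Atf2 (0.950) and Plekhh2 (0.945), genes of 76.1 to 137 kb, and without group means r was 0.857, 0.658 and 0.536. Gabra2 was most like Cpne8 (0.925), Fnbp1l (0.874) and Egfem1 (0.872), genes of 81 to 609 kb, and without group means r was 0.764, 0.547 and 0.493. For Gabra3 the nearest were Plppr1 (0.851), Slain1 (0.844) and Shroom3 (0.841), genes of 54.7 to 282 kb. For Gabra5, itself 102 kb long, they were Gnpda2 (0.913), Gpr19 (0.888) and Sin3b (0.872), genes of 19.2 to 34.9 kb. These values describe likeness over libraries that share depth, set of tables and long-gene share.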

How the data were processed

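Nuclear RNA was amplified with SMART-Seq v4 and prepared with Nextera XT for single-end sequencing, per the labels' protocols. The authors deposited raw counts by gene, a table per library. These came from Bowtie2 2.5.3 and HTSeq with mm10 (GRCm38), per the submitters' processing notes. Counting mode, strand setting and annotation release were not given in the sources used here.

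Tables of PTU_TH and PTU hold 55341 rows and those of Mut and Ctrl 48321, with 46380 symbols shared. All genes were fitted within a set, and those with shared symbols across sets. A comparison was fitted on the libraries of its 2 groups alone, in edgeR 4.0.16 (R 4.3.3). Scaling was by TMM, filterByExpr required a minimum count of 10, and the quasi-likelihood fit was robust. P-values were adjusted by Benjamini-Hochberg over all genes tested, and genes under 0.05 were called. Depths of 12957838 to 32571175 counts and a common biological coefficient of variation of 21.9% to 27.8% set the precision. The code was tested on simulated data.

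CPM in the text are on a TMM scale over 15 libraries, and overlap of groups was read on it. Lengths and positions came from GENCODE M21. Y-linked counts were called present above 50 CPM summed over 4 genes. The genes named are all members, called members of each list (up to 4 by p), Hr, Thra and Pvalb, and the 3 genes most like each member. A few genes that the rule would name are not reported here. Members and lists were chosen with earlier results of these data known. Alternatives were DESeq2 1.42.0, limma-voom (limma 3.58.1), sva 3.50.0, other scalings, filters and covariates, a block by replicate number, and leaving out single libraries.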

Additional observations from a re-analysis of the deposited data

Results flagged for a closer look

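Of the 21 sets of 4 libraries of a member in a group, 3 held a library far from the other 3 by Dixon's test at the 95% level, and chance marks about 5% of such sets. Gabrb1 had 173 CPM in Ctrl replicate 1, against 88.0 to 93.5 in the other Ctrl libraries (gap over range 0.936), and that library has the highest long-gene share of its group (39.6%). Gabrb2 had 415 CPM in Mut replicate 2, against 574 to 603 in the other Mut libraries (0.844), and that library has the lowest share of its group (27.4%). Gabra3 had 58.8 CPM in PTU_TH replicate 3, against 69.5 to 71.6 in the other PTU_TH libraries (0.832). PTU, with 3 libraries, was not tested in this way.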

How the results depend on the processing

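The number of members called moved with the fit. In PTU_TH against PTU (0 as reported) it was 3 with the long-gene share as covariate and 3 with 1 surrogate variable. In Mut against Ctrl (0) it was 1 with limma-voom and 1 with the long-gene share. In PTU against Ctrl (0) it was 2 with limma-voom, 1 with the long-gene share, 1 with a surrogate variable and 0 to 1 on omission of a library. In PTU_TH against Ctrl (2) it was 4 with the long-gene share and 4 with a surrogate variable, which add Gabrb1 and Gabrd, 0 with TMM on genes over 100 kb, and 1 to 2 on omission of a library. RLE and upper quartile scaling, no filter, a 1 CPM filter, DESeq2, 1 fit of all groups and the Y-linked covariate left these counts as they were, and the cause of the others was not tested.

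Signs turned only for estimates that were not called. In PTU_TH against PTU, Gabrb1 was 0.068 with limma-voom. In Mut against Ctrl, Gabrb2 was 0.072 with limma-voom, 0.11 with the Y-linked covariate and 0.056 with a surrogate variable. In PTU against Ctrl, Gabrb1 was 0.00051 with TMM on genes over 100 kb, 0.075 with the Y-linked covariate and 0.060 with the long-gene share, Gabrd was 0.18 with TMM on those genes and 0.035 with limma-voom, and Gabra5 was -0.015 with the Y-linked covariate. In PTU_TH against Ctrl, Gabra5 was 0.041 with TMM on those genes, and Gabra3 was -0.020 with limma-voom. On omission of a library, Gabrb1 ran from -0.56 to 0.38 in PTU_TH against PTU and from -0.73 to 0.15 in PTU against Ctrl, Gabrd from -0.15 to 0.033 in PTU against Ctrl, and Gabrb2 from -0.15 to 0.059 in Mut against Ctrl. In PTU_TH against Ctrl, Gabra5 ran from -0.20 to 0.15 and Gabra3 from -0.0052 to 0.10. Without a turn of sign, Gabrb1 ran from -0.72 to -0.083 in PTU_TH against Ctrl and from 0.38 to 0.85 in Mut against Ctrl, and Gabra2 from 0.28 to 0.62 in Mut against Ctrl.

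Libraries of equal replicate number had correlations of -0.0209 to 0.202 between Mut and Ctrl and of -0.208 to 0.0901 between PTU_TH and Ctrl. Mut replicates 1 and 2 and PTU_TH replicate 1 correlated best with their own number in Ctrl, and the others did not. Whether equal numbers share a litter or a sorting day is not said. These correlations cannot decide it, because every other difference between libraries enters them too. With a replicate block, 0 members were called in Mut against Ctrl (82 genes in all, 59 without) and 1 in PTU_TH against Ctrl (2424 genes, 2814 without), where Gabra4 stayed at -0.43 with an adjusted p of 0.0582. PTU shares no number with the other groups.

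Counts over all genes moved more. In PTU_TH against PTU (43) they were 204 with DESeq2, 171 with limma-voom, 335 with the Y-linked covariate, 1012 with the long-gene share, 1013 with a surrogate variable, 0 with TMM on genes over 100 kb and 5 to 29 on omission of a library. In Mut against Ctrl (59) they were 404, 331, 31, 211, 178, 18 and 11 to 103 under the same settings, 196 in 1 fit of all groups and 90 with a 1 CPM filter. In PTU against Ctrl (2804) limma-voom gave 5653, the long-gene share 4011, a surrogate variable 3981 and omission of PTU replicate 5 4283. In PTU_TH against Ctrl (2814) the long-gene share gave 4540 and a surrogate variable 4536. TMM on genes over 100 kb moved the median of all genes by 0.227 in PTU against Ctrl. With the longest transcript as length, the order per kb was as reported except that Gabra2 stood above Gabra5 in PTU, but Gabrd and Gabrb2 then overlapped in Mut and Ctrl and stood 1.16 and 1.28 times apart. Low counts limit Gabra5 (46 to 160 per library) and Gabra2 in PTU_TH (73 to 147).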
